A study of Mus musculus with 884 samples.

Results

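Of 29544 bins of 80 kb that could be compared on chromosomes 1 to 19, 4162 were late in every cell state measured, which is 14.1% of the bins and 333 Mb. Such a bin was replicated in at most 20% of the mid-S cells of each of 8 groups of mouse cells, where mid-S means that 40 to 70% of a cell's called bins had been replicated. The members were therefore chosen on the calls of the mid-S cells, and their shares in those cells are given as a description. A further 1346 of the 30890 bins of the table were called in under 50% of the mid-S cells of at least 1 group and were not classed.

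In S phase, the genome is copied in a set order that is cell type specific in part of the genome and shared between cell types in the rest. DNA that is late in most cell types typically lies in long, gene-poor and AT-rich stretches of compact chromatin, often at the nuclear lamina or near nucleoli. Stretches of one timing form domains, and the borders between early and late domains are gradual because forks take time to cross them.

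Replication was read by single-cell Repli-seq: cells were sorted one by one by DNA content, the genome of each was amplified and sequenced, and every bin of it was called replicated, not replicated or without data. The groups were EpiSCs, female epiblast stem cells of a C57BL6 background kept with Activin and FGF, and CBMS1 cells, a female embryonic stem cell line from a cross of CBA and MsM mice, at d0, d2, d3, d4, d5, d6 and d7. At d0 the CBMS1 cells were kept in 2i and LIF; from there they passed through an epiblast-like state and were then grown as floating aggregates towards neurectoderm. No culture or animal was named for any cell, so each group counted as 1 sample: no test between groups was run, and the intervals below are 95% intervals by the exact Clopper-Pearson method, which hold the error of counting cells and no other; beside a count of 0, the share that 3 counts would give is printed as its limit. CBMS1 is a single line and the EpiSCs differ from it in strain, so line and state cannot be told apart between EpiSCs and d0.

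The table held 884 cells: 805 from S phase, 72 from G1 and 7 whose labels disagreed on the day and that entered no group. The mid-S groups held 26 EpiSCs, 59, 35, 13, 18, 20 and 21 cells at d0, d2, d3, d4, d5 and d6, and at d7 the remainder of 293 cells, with at least 26813 bins called in each cell. Of these, 50 cells at d0 and 35 at d7 came from a previous series. In 7 mid-S cells (3 at d0, 1 at d4 and 3 at d7) the calls departed from the order of the mean timing profile (area under the curve under 0.8), and values without them are given where they matter.

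The bins that were late in every state were seldom replicated at mid S. Averaged over the 4162 bins, they were replicated in 4.10% of EpiSCs, and in 5.55%, 2.99%, 4.203%, 6.83%, 3.25%, 2.81% and 5.27% of cells at d0, d2, d3, d4, d5, d6 and d7. The higher values at d0, d4 and d7 came with single cells that departed from the profile, in which up to 60.5%, 88.1% and 58.8% of these bins were called replicated. Without those 7 cells the means were 3.15% at d0, 2.03% at d4 and 4.53% at d7, so the day with the highest mean was then d7. No bin was unreplicated in all 293 cells, and 13 were once the 7 cells were left out.

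Earlier in the cell cycle the same bins gave almost no signal. In G1 cells, which had not begun S phase, 0.763% of calls in these bins were replicated, against 1.39% in the other bins, and the highest of the 72 cells reached 14.4%. In the 254 S-phase cells below the mid-S window, 1.09% of calls in the always-late bins were replicated, against 22.8% in the other bins. Before mid S their level was thus close to that in G1 cells.

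Many bins lay near the threshold. The highest group share was at most 5% in 57 of the bins, above 5 and up to 10% in 1698, above 10 and up to 15% in 1068, and above 15 and up to 20% in 1339. Just outside, 947 bins had a highest share above 20 and up to 25%. The set thus has no natural edge at 20%. The last bins inside, 96 of them tied at 20%, included chr1:18320001-18400000, chr1:56560001-56640000 and chr1:112240001-112320000 (mm9, as are all positions here), each at 20% at d5 or d6. The first outside, 49 tied at 20.3% at d0, included chr1:24400001-24480000, chr1:33040001-33120000 and chr1:98720001-98800000. With a limit of 10% in place of 20%, 1755 bins qualified, and with only the present series at d0 and d7, where d0 is left with 9 mid-S cells, 1788 did.

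In any single group the always-late bins were about 50% of the late DNA or less. Of the bins replicated in at most 20% of a group's mid-S cells, they made up 48.4% in EpiSCs (8597 such bins), 49.3% at d0, 41.03% at d2 and 50.7% at d7. The remainder of each group's late bins were above the limit in at least 1 other state. Bins at the opposite extreme, replicated in at least 80% of the mid-S cells of every group, were more numerous, at 7614 bins or 25.8%.

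The always-late bins were spread unevenly over the chromosomes. They made up 20.6% of chromosome 16 (244 of 1185 bins), 20.2% of chromosome 14, 19.9% of chromosome 8, 19.7% of chromosome 1 and 18.8% of chromosome 3. At the low end they made up 5.35% of chromosome 13 (77 of 1438 bins), 5.44% of chromosome 9, 7.30% of chromosome 19 and 7.41% of chromosome 11. No chromosome lacked them: the fewest, 53 bins, were on chromosome 19.

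**Figure D1:**
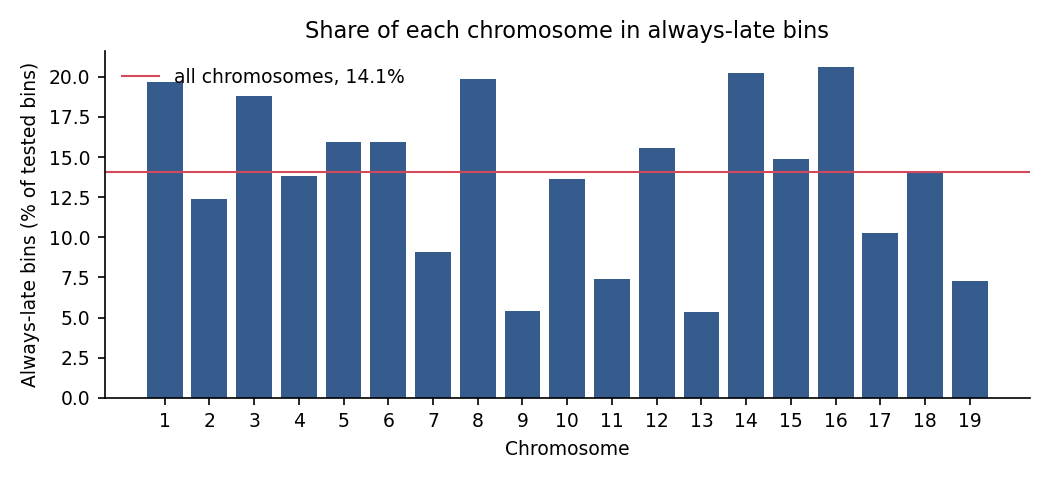
Bars show, for each of chromosomes 1 to 19, the percentage of its tested 80 kb bins that were late in all 8 groups, and the line marks the percentage over all chromosomes (14.1%). Chromosomes 16, 14, 8 and 1 stand near 20%, and chromosomes 13 and 9 stand near 5%.

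Within chromosomes the bins were least frequent at the ends and gathered in blocks. They were 7.17% of the bins in the first 10 Mb of the chromosomes and 6.29% of those in the last 10 Mb, against 12.1%, 11.6%, 9.81% and 20.1% of the bins 10 to 20, 20 to 30, 30 to 40 and 40 to 50 Mb from the start and 15.0% of those beyond 50 Mb. Of the stretches of 10 Mb, 56 (25.7%) held no such bin, while 13 were more than 50% always late and together held 930 of the bins. The densest stretch, chr3:40000001-50000000, held 88 of the bins (70.4% of it), followed by chr1:110000001-120000000 at 64% and, at 62.4% each, chr14:80000001-90000000, chr14:90000001-100000000 and chr16:60000001-70000000. In mouse chromosomes, all of which are acrocentric, the start of the sequence is the centromere end.

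Adjacent bins formed 512 runs with a median length of 440 kb. Only 67 bins stood alone. The 284 runs of at least 5 bins (400 kb) held 3633 bins, or 87.3% of all, and the runs of at least 11 bins, 25.8% of the runs, held 2550, or 61.3%. Of the runs, 21.3% were 1 Mb or longer and 27 were 2 Mb or longer. The longest run was 4400 kb. Runs of the bins early in every state had a median of 560 kb and a longest run of 6560 kb.

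The 6 longest late runs were chr12:94400001-98800000 (55 bins), chr1:109120001-112800000 (46 bins), chr3:44160001-47360000 and chr2:94640001-97840000 (40 bins each), chr4:77360001-80400000 (38 bins) and chr8:102000001-104960000 (37 bins). They were not alike at mid S. The run on chromosome 12 was replicated in 18.1% of cells at d6 and 11.5% at d7, close to the limit, against 1.75% in EpiSCs and 0.70% at d3. The runs on chromosomes 1, 3, 2, 4 and 8 stayed at or below 7.60% in every group.

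The distance from the runs to earlier DNA varied widely. Walking outwards from the ends of the runs of at least 5 bins, the first bin replicated in 50% of mid-S cells or more was reached at a median of 1680 kb, with an interquartile range of 720 to 3400 kb, for the 563 of 568 ends where one was found on the chromosome.

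The order of the always-late bins towards the end of S phase was read from 258 other cells, those with a score above 70%, none of which had entered the choice of bins. As the score grew, the share of always-late bins replicated in a cell went up slowly and then steeply. It averaged 2.05% at scores of 40 to 50%, 4.05% at 50 to 60% and 7.73% at 60 to 70%. In late S it averaged 14.2 ± 9.0% at 70 to 75%, 30.4 ± 10.4% at 80 to 85%, 48.2 ± 10.0% at 85 to 90%, 65.5 ± 10.3% at 90 to 95% and 95.9 ± 7.3% above 95% (SD over 51, 43, 36, 28 and 51 cells). If these bins were always the last to be copied, none would be replicated before a score of about 86%, and 13.8% and 45.8% would be at scores of 85 to 90% and 90 to 95%. That arithmetic also gives about the lowest share that a cell of a given score can have, so lying above it was set in advance. The distance above it, 48.2% against 13.8% at scores of 85 to 90%, describes how far cells copied always-late bins while other bins still waited.

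**Figure D2:**
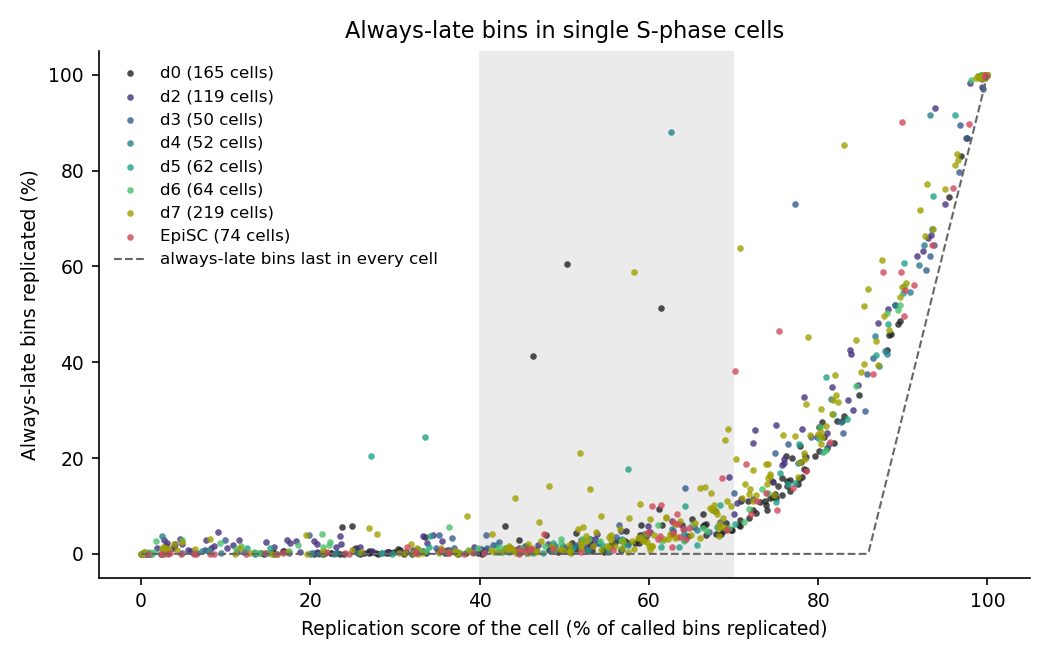
Each point is 1 of 805 S-phase cells, with its replication score on the x axis and the percentage of always-late bins replicated in it on the y axis, coloured by group; the grey band marks the mid-S cells used to choose the bins, and the dashed line is the share expected by arithmetic if these bins were the last in every cell. The points lie near 0 up to a score of about 40%, bend upwards through the mid-S band and stay above the line. That line is also about the lowest share that a score allows. The few points far above the others include the mid-S cells that departed from the mean profile.

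Of what a cell had left to copy, the always-late bins nevertheless took a growing part. They were 13.5% of the unreplicated bins in cells with scores up to 10%, 25.3% at 40 to 50%, 44.3% at 70 to 75%, and 65.0% at 90 to 95%. Above 95% they were 56.3% of what remained. In the 79 cells with scores above 90%, 3.92% of the always-late bins were replicated in all cells, and 19.3% (804 bins) in at most 75% of the cells, where 0.402% of the other bins were. The median bin was replicated in 86.1% of these cells if always late and in 100% otherwise.

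To set groups side by side, cells were divided by score into bands of 70 to 80, 80 to 90 and 90 to 100%, and a bin's late-S share is the mean of its share in each band. A band counted in a group with at least 5 cells, which left d4 and d6 without the lowest one. Over the bands above 80%, which every group filled, the always-late bins averaged 65.3% in EpiSCs and 60.9%, 60.6%, 57.5%, 59.8%, 59.6%, 63.96% and 65.5% at d0, d2, d3, d4, d5, d6 and d7. These means differ by at most 8 points, while single cells of 1 group and band differed by far more: in the 80 to 90% band they ran from 22.9 to 85.4% at d7 and from 21.4 to 48.7% at d0. With the bands that each group filled, 2 at d4 and d6 and 3 elsewhere, the late-S share averaged 51.2 ± 7.0% (SD over 8 groups). It was 59.8% at d4 and 63.96% at d6, against 44.5 to 50.6% in the others, so that SD includes the missing band. The average was 36.6% once cells with scores above 95% were left out.

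Among themselves the always-late bins covered a wide range. The late-S share of a bin, averaged over groups, ran from 22.9% to 91.4%, with a median of 49.4% and quartiles of 40.1% and 61.3%. Part of the order was shared between groups: across the 4162 bins, the correlation of late-S shares between pairs of groups lay between 0.36 (d3 and d7) and 0.84 (d6 and d7), against 0.69 to 0.92 across all tested bins. Adjacent bins share calls and all bins share the cells of their group, so these coefficients are a description of the groups. The choice of bins with low mid-S shares also narrows their range, so lower coefficients than across all bins are partly set by it. Groups further differ in the bands and cells they hold. The mean share at mid S and the late-S share of a bin correlated at 0.68 across the bins.

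Longer runs were later. The late-S share averaged 68.5% for the 67 single bins, 64.4% for runs of 2 to 4 bins, 57.3% for 5 to 10 bins, 49.0% for 11 to 20 bins and 42.1% for 21 to 55 bins. The order held in each of the 8 groups. The outermost bins alone followed it too, at 64.9%, 60.02%, 56.4% and 54.2% from runs of 2 to 4 up to runs of 21 to 55 bins, so longer runs were later also at their ends. Length and mid-S share moved together, since the mid-S share averaged 7.84% for single bins and 3.46% for runs of 21 to 55 bins.

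**Figure D3:**
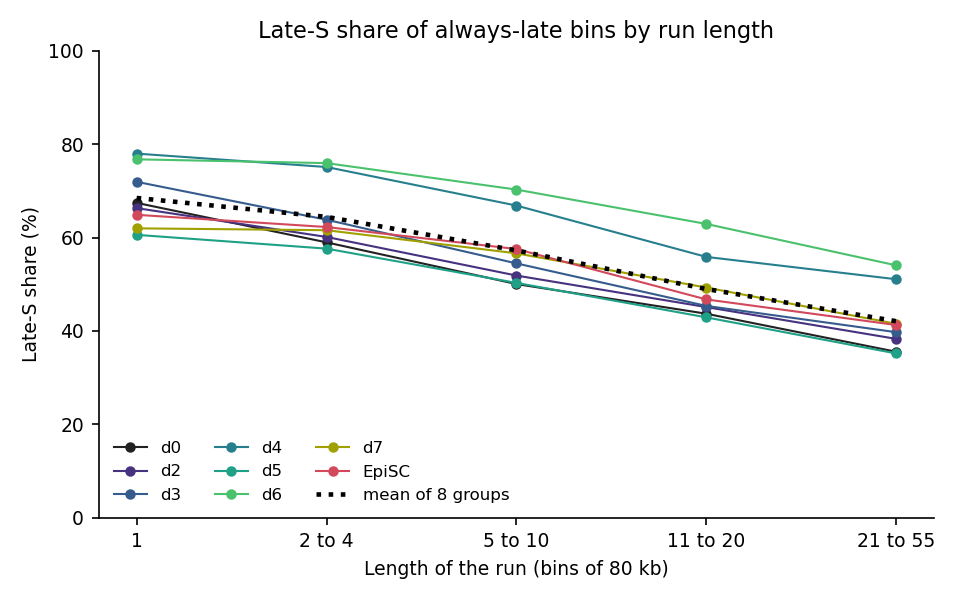
Points show the late-S share (%) of always-late bins, averaged over the bins of runs of each length class, for each group and for the mean of 8 groups (dotted). All lines go down from left to right, from a mean of 68.5% for single bins to 42.1% for runs of 21 to 55 bins; d4 and d6, which lack the band of lowest scores, lie above the rest.

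The ends of a run were replicated in more cells than its interior. In runs of at least 11 bins, the outermost bins had a late-S share of 55.7% and those 5 or more bins inside had 40.8%, a difference of 14.9 points that ranged from 11.4 to 17.9 points over the groups. The share declined with each step inwards to 36.3% at 1040 kb inside, a distance that 41 bins reached. Outside the run it was 59.7% at 80 kb and 76.96% at 1360 kb. Longer runs gave more of the 1230 interior bins and all of the deepest ones, while each run gave the same number of outermost bins. Run length is thus mixed into the difference and the decline. At mid S the ends and the interior stood at 5.61% and 3.14%, which the choice of bins partly sets. Among the bins with at most 10% in every group the difference was 8.005 points.

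**Figure D4:**
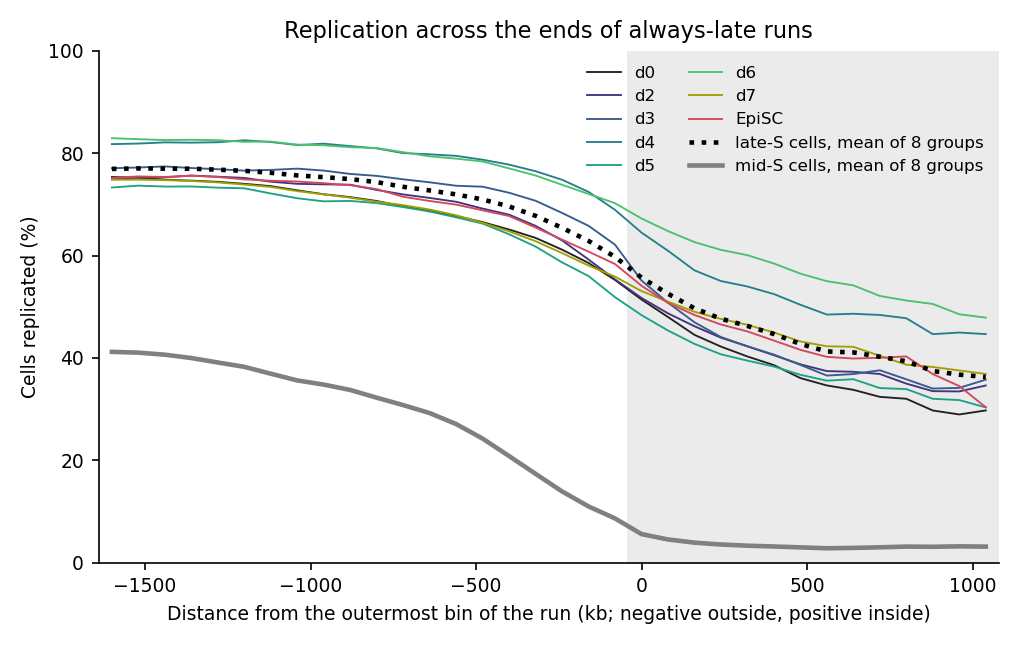
Lines show the percentage of cells in which bins were replicated (y axis) against the distance in kb from the outermost bin of always-late runs of at least 11 bins (x axis, grey inside the run), for late-S cells of each group, their mean (dotted) and the mean of mid-S cells (thick grey). Late-S shares decline from 76.96% at 1360 kb outside through 55.7% at the outermost bin to 36.3% at 1040 kb inside, without a step at the border. The deepest bins come from the longer runs only.

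Single cells showed the same pattern within a run. Taking each run of at least 11 bins in each late-S cell in which at least 80% of it was called, 56.6% were still wholly unreplicated at scores of 70 to 80%, 40.3% were partly replicated and 3.12% were complete. At 80 to 90% the shares were 30.6%, 55.8% and 13.7%, and at 90 to 100% they were 4.11%, 24.8% and 71.1%. Where a run was partly replicated, the replicated bins included an end of the run in 85.01%, 91.3% and 95.7% of cases in the 3 bands. Both ends were replicated in 12.6%, 20.2% and 34.2% of cases. An end bin was replicated in 48.8%, 55.7% and 64.99% of the partly replicated cases, averaged over both ends, and the middle bin in 18.6%, 25.5% and 39.4%. Ends were ahead of the middle in each band of each group that had at least 5 cells in it.

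The runs that waited longest were not only the longest ones. Among the 284 runs of at least 5 bins the late-S share went from 27.9% to 79.8%, with a median of 51.96%. The lowest belonged to chr14:107920001-110400000 (31 bins, 27.9%), chr16:61440001-62400000 (12 bins, 30.4%), chr14:82080001-82480000 (5 bins, 30.7%), chr8:102000001-104960000 (37 bins, 31.6%) and chr1:27520001-27920000 (5 bins, 32.4%). Even in the 90 to 100% band, more than 50% of the bins of the run on chr14:107920001-110400000 were replicated in only 17 of 24 cells at d7 (70.8%, 48.9 to 87.4%) and in 2 of 5 at d0 (40%, 5.27 to 85.3%).

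The soonest of the late runs were short. They were chr3:62320001-62800000 (6 bins, 79.8%), chr2:66400001-67120000 (9 bins, 79.8%), chr3:99360001-99840000 (6 bins, 78.9%), chr8:78320001-78720000 (5 bins, 78.8%) and chr11:46640001-47040000 (5 bins, 78.5%). At mid S they stood between 5.12% and 8.83% on average over groups. In the 80 to 90% band the run on chr3:62320001-62800000 was replicated in 18 of 24 cells at d7 (75%, 53.3 to 90.2%) and in 12 of 15 at d0 (80%, 51.9 to 95.7%), where the run on chr14:107920001-110400000 was in 2 of 24 (8.33%, 1.03 to 27%) and 0 of 15, which allows a share of up to 20%.

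Differentiation left these bins late at mid S by the way they were chosen, and the late-S cells show where their order still differed. At d7 the late-S share of the always-late bins averaged 50.6%, against 45.1% at d0, and the median bin was higher by 4.63 points, against a median of -1.33 points over all tested bins. By 30 points or more, 291 of the 4162 bins (6.99%) were higher at d7, where 3.67% of all tested bins were, and 50 (1.201%) were lower, where 2.12% of all tested bins were. Most bins outside the set were near 100% at d0 and could not be higher by 30 points. Among bins at 70% or less at d0, 291 of 3786 always-late bins (7.69%) were higher by that much, where 17% of all such bins were. Among bins at 30% or more at d0, 50 of 3342 (1.496%) were lower, where 2.19% of all such bins were.

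At similar scores the cells of both days overlapped. In the 70 to 80% band, the always-late bins replicated in a cell averaged 20.7% at d7 (11.0 to 63.8% over 25 cells, mean score 74.6%) and 13.6% at d0 (5.84 to 22.6% over 35 cells, mean score 75.1%), while the other bins averaged 83.8% and 85.3%. In the 80 to 90% band the averages were 40.98% at d7 and 32.9% at d0, and above 90% they were 89.97% and 88.8%. The gap between the days was thus smallest in the highest band, where d0 held 5 cells. Any gap must shrink there, as scores come close to 100%. Series went with day in the late-S cells, since 36 of 55 cells at d0 and 3 of 73 at d7 came from the previous series. With the present series alone, 19 d0 cells and 1 band were left. Then 13.1% of the always-late bins were higher and 3.10% lower, against 8.38% and 6.34% of all tested bins. Cells that departed from the mean profile also went with day, 18 at d7 and 1 at d0. Most of those at d7 had scores of 98.6% or more, and the 1 at d0 had 99.6%. The others at d7 had 70.7%, 83.1% and 85.9%. In nearly complete cells few bins are left unreplicated, so their order can hardly be read. The counts thus partly follow the number of such cells, as the highest band held 24 cells at d7 and 5 at d0. Without the departing cells, d0 had under 5 cells above 90%, which left 2 bands, and the median always-late bin was higher by 2.93 points. Then 14.4% of the always-late bins were higher and 4.23% lower, against 6.63% and 4.91% of all tested bins. The loss of the highest band is thus mixed into these values. No G1 control was used for both days, so control and day cannot be told apart. Within d7 the 70 to 80% band averaged 12.4 to 31.8% over the sets of cells that shared a control and a series. Those extremes held 3 cells each, with mean scores of 72.4% and 77.2%. Within d0 the range was 11.0 to 20.4%, and its extremes were 1 cell each, with scores of 71.7% and 76.2%. With cells paired by score, 577 bins (13.9%) were higher and 91 (2.19%) lower, against 6.68% and 3.90% of all tested bins. With no bands, where d7 holds more cells of high score, the counts were 1383 (33.2%) and 11 (0.264%), against 10.99% and 1.40%.

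The bins higher at d7 lay in 82 runs on 17 chromosomes, and 20 runs of at least 5 bins were higher by 30 points or more as a whole. The largest differences were on chr11:37520001-38720000 (74.4% at d7, 25.1% at d0), chr2:46480001-46960000 (84.2% at d7, 36.1% at d0) and chr2:7440001-7840000 (86.01% at d7, 40.9% at d0). Over the alternative settings these differences lay between 49.3 and 65.7, 48.1 and 65.9, and 45.1 and 67.7 points. The 15-bin run on chromosome 11 was replicated in 13 of 25 cells at d7 (52%, 31.3 to 72.2%) and in 0 of 35 at d0, which allows up to 8.57%, in the 70 to 80% band. In the 80 to 90% band it was in 18 of 24 cells at d7 (75%, 53.3 to 90.2%) and 0 of 15 at d0, which allows up to 20%. The runs were picked from all 284 for this difference in these cells, so the counts are a description. At mid S the same run was at 10.3% at d7 and 0.79% at d0, so it was late in both.

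The longest always-late run followed the same course. On chr12:94400001-98800000 the late-S share was 56.7% at d7 and 28.5% at d0, and in the 80 to 90% band more than 50% of the run was replicated in 15 of 24 cells at d7 (62.5%, 40.6 to 81.2%) and 0 of 15 at d0, which allows up to 20%. Of the other long runs, chr4:77360001-80400000 hardly differed, at 30.3% at d7 and 30.2% at d0. The runs on chromosomes 1, 3, 2 and 8 were higher at d7 by 10.2 to 14.2 points.

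Fewer runs were later at d7. Only 2 runs of at least 5 bins were lower by 30 points or more, chr8:57840001-58400000 (31.1% at d7, 66.6% at d0) and chr8:42960001-43600000 (49.0% at d7, 81.03% at d0), followed by chr6:40720001-41120000 (54.4% at d7, 78.2% at d0). Their sizes depended on the setting: the differences of -35.5, -32.1 and -23.8 points were -18.6, -19.1 and -12.2 points with no bands, and up to -44.6, -46.7 and -50.6 points in the other alternatives. In the 80 to 90% band the run on chr8:57840001-58400000 was replicated in 2 of 24 cells at d7 (8.33%, 1.03 to 27%) and in 10 of 15 at d0 (66.7%, 38.4 to 88.2%). At mid S it was at 2.70% at d7 and 7.04% at d0.

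EpiSCs too were set against d0. By 30 points or more, 443 of 4162 bins (10.6%) were higher in EpiSCs, where 4.33% of all tested bins were, and 2.79% were lower, where 1.77% of all tested bins were. Among bins at 70% or less at d0, 11.7% of the always-late bins were higher, where 20% of all such bins were. Among bins at 30% or more at d0, 3.47% were lower, where 1.83% of all such bins were. Upwards, as at d7, the share of the always-late bins was thus below that of all bins with room to differ. There too the choice of bins, which held EpiSCs at 20% or less at mid S, partly sets the gap. Downwards the share was above that of all such bins in this setting, but the direction depended on the setting. The median always-late bin was higher in EpiSCs by 3.92 points. Without the 8 late-S EpiSCs and 1 d0 cell that departed from the mean profile, which leaves 1 band, the median was -2.86 points. Then 299 always-late bins (7.18%) were higher and 275 (6.61%) lower, against 6.77% and 6.72% of all tested bins.

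The runs with the largest differences in EpiSCs were partly the ones named for d7, a comparison that shares the d0 cells. Higher were chr18:28080001-28560000 (77.7% in EpiSCs, 22.6% at d0), chr2:7440001-7840000 (87.4% in EpiSCs, 40.9% at d0) and chr7:60000001-60880000 (76.2% in EpiSCs, 30.9% at d0). The run on chromosome 18 gave, in the 70 to 80% band, 4 of 9 EpiSCs (44.4%, 13.7 to 78.8%) and 0 of 35 d0 cells, which allows up to 8.57%. Over all late-S cells it gave 17 of 23 EpiSCs (73.9%, 51.6 to 89.8%) and 3 of 55 d0 cells (5.45%, 1.14 to 15.1%). The run on chr7:60000001-60880000 was at 41.02% at d7. Without the cells that departed from the profile, its difference between EpiSCs and d0 was 15.1 points, against 45.3 points with them, and that of the run on chromosome 18 was 33.3 points, against 55.01 points with them.

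Lower in EpiSCs were chr8:42960001-43600000 (37.8% in EpiSCs, 81.03% at d0), chr14:80880001-81440000 (27.3% in EpiSCs, 61.5% at d0) and chr7:101840001-102240000 (41.04% in EpiSCs, 74.9% at d0). These differences of -43.3, -34.1 and -33.8 points were -26.4, -11.7 and -16.7 points with no bands, and the one on chromosome 14 was -11.5 points with the present series alone. More than 50% of the run on chr8:42960001-43600000 was copied in 8 of 23 late-S EpiSCs (34.8%, 16.4 to 57.3%), in 35 of 73 cells at d7 (47.9%, 36.1 to 59.96%) and in 33 of 55 at d0 (60%, 45.9 to 72.98%). In the 80 to 90% band the counts were 1 of 5 EpiSCs (20%, 0.505 to 71.6%), 8 of 24 cells at d7 (33.3%, 15.6 to 55.3%) and 12 of 15 at d0 (80%, 51.9 to 95.7%). The run on chromosome 14 was at 62.2% at d7, close to d0, and the run on chr7:101840001-102240000 was at 60.2%.

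The late-S cells of the days between took no part in picking these sets, though the mid-S cells of those days helped choose the always-late bins. In those late-S cells the sets were intermediate. That follows in part from the choice, since each set was picked for its difference from d0. In cells with scores above 80%, the 291 bins higher at d7 were replicated in 53.3%, 60.3%, 54.8%, 64.9%, 76.5%, 83.5% and 89.04% of cells at d0, d2, d3, d4, d5, d6 and d7, and in 78.3% of EpiSCs. They stayed near their d0 level up to d3 and were higher from d5 on. The 50 bins lower at d7 were at 93.3%, 75.7%, 68.9%, 67.5%, 60.6%, 61.6% and 59.8% over the same days, where the values at d0 and d7 are the ones that picked the bins. The 443 bins higher in EpiSCs were at 89.7% in EpiSCs and between 50.1% at d0 and 67.7% at d7 in the CBMS1 cells. The bins lower in EpiSCs were at 47.1% in EpiSCs, 86.4% at d0 and between 60.6% and 66.4% from d2 to d7. All always-late bins together were between 57.5% and 65.5% over the groups, so from d2 to d7 both EpiSC sets were close to that level.

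**Figure D5:**
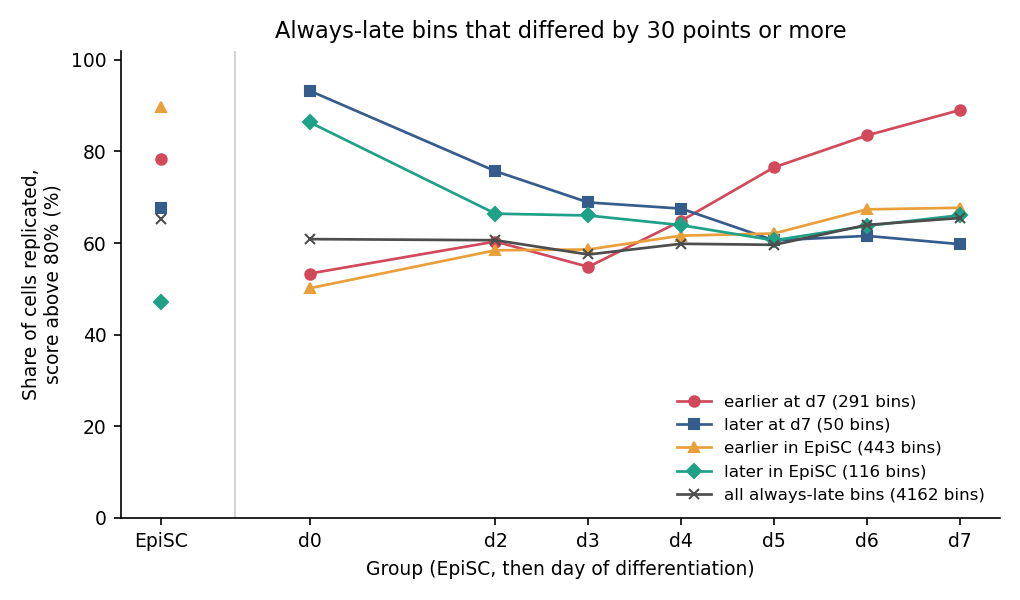
Points show the percentage of cells with scores above 80% in which sets of always-late bins were replicated (y axis), for EpiSCs and for d0 to d7 (x axis, spaced by day); each set was picked for a late-S difference of 30 points or more between d7 or EpiSCs and d0, so its values in those groups are a description. The set higher at d7 climbs from d3 to 89.04% at d7. The sets lower at d7 or in EpiSCs are lower on every day after d0 than at d0, which their choice partly sets. All always-late bins together stay between 57.5% and 65.5%.

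The bins that differed also differed at mid S, within the limit that defines the set. The 291 bins higher at d7 were replicated in 11.4% of mid-S cells at d7 and 3.18% at d0, and the 50 lower at d7 were in 3.98% at d7 and 12.1% at d0. The 443 bins higher in EpiSCs were in 7.81% of mid-S EpiSCs and 4.33% of mid-S d0 cells, and the bins lower in EpiSCs were in 2.32% of mid-S EpiSCs and 10.4% of mid-S d0 cells. These mid-S shares are among the values that chose the bins and are given as a description. The bins higher at d7 were 28.3% (15 of 53) of the always-late bins of chromosome 19, 19.5% (16 of 82) of those of chromosome 9 and 16.9% (46 of 272) of those of chromosome 2. None lay on chromosomes 15 and 17. The always-late bins of chromosomes 19, 9 and 2 lie in 8, 13 and 41 runs, and adjacent bins share calls, so these shares rest on few separate places.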

How the data were processed

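The authors used 1 of 14 merged G1 controls to correct each cell, per the file headers, and deposited a call for each 80 kb bin (1 replicated, -1 not replicated, 0 no data) with a replication score, a fraction of the called autosomal bins. Picard, cutadapt and BWA 0.7.10-r789 are named, with the mm9 build, in the submitters' processing notes. Read depth was not used here; at least 24946 bins were called in each late-S cell.

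A bin's share is the number of cells called replicated over cells with a call. A run counts as replicated in a cell when more than 50% of its called bins are. Late-S shares are unweighted means over score bands with at least 5 cells. Named runs are the 6 longest, the 5 with the lowest and the 5 with the highest late-S share, and the 3 with the largest difference in each direction. Groups were compared by a fixed size of 30 points, without a test. The bins, thresholds and runs were chosen with earlier results of these data known. Steps were tested on simulated data. Python 3.11.15, numpy 2.4.6, pandas 2.3.3, scipy 1.17.1 and matplotlib 3.10.9 were used. The gene and sequence tables at hand are of another build than mm9, so runs are named by position only.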

Additional observations from a re-analysis of the deposited data

How the results depend on the processing

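The number of always-late bins and of runs of at least 5 bins stayed within 1.5 times of 4162 bins and of 12.02 runs per 100 Mb tested in the alternatives tried, except that a limit of 10% gave 1755 bins and 5.50 runs per 100 Mb, and the present series alone at d0 and d7 gave 1788 bins and 6.01 runs per 100 Mb, with 9 mid-S cells left at d0. Of those 1788 bins, 1775 were among the 4162. The spread of the late-S share between groups, an SD of 7.0 points, includes d4 and d6, which lack the lowest band. The late-S share of 51.2% moved by more than that spread when scores above 95% were left out (36.6%), without the cells that departed from the mean profile (38.001%), with bands above 80% alone (61.6%) and for the bins limited to 10% (43.97%). The difference of 14.9 points between ends and interior was then 18.2 points without scores above 95%, 18.7 points without the departing cells and 8.005 points for the bins limited to 10%, and it was above 0 in every alternative run. The shares of bins that differed between groups depended strongly on the settings. For d7 against d0 the always-late bins higher and lower, 6.99% and 1.201% in the report, were 33.2% and 0.264% without bands, 13.9% and 2.19% with cells paired by score, 18.7% and 4.83% at a size of 20 points, 2.19% and 0.24% at 40 points, 14.4% and 4.23% without the departing cells, 13.1% and 3.10% with the present series alone, and 15.6% and 3.44% without scores above 95%. For EpiSCs against d0 they were 35.97% and 0.457% without bands, 21.96% and 8.75% at 20 points, and 3.72% and 0.937% at 40 points. The lower bins in EpiSCs were 6.61% without the departing cells and 5.67% with the present series alone, and the higher ones were 22.5% without scores above 95%. Higher bins outnumbered lower ones in each of these settings, and the share of higher bins exceeded that of all tested bins in each. Of all tested bins, 1.57% (40 points) to 10.99% (no bands) were higher at d7, and 1.91% to 12.3% in EpiSCs. At the size of 30 points with all bands, however, the share of higher always-late bins was below that of all bins with room to be higher (7.69% against 17% at d7, 11.7% against 20% in EpiSCs). The choice of bins, late at mid S in every group, partly sets that gap. The share of lower bins was below that of all tested bins at d7 in each setting. In EpiSCs it was below without bands, without the departing cells, with the present series alone and without scores above 95%. In EpiSCs the share was above that of all tested bins with cells paired by score and, with all bands, at 20, 30 and 40 points. Causes were not tested. The bands above 80% alone and, for the group comparisons, the omission of scores above 95% were chosen after seeing the data. No paired analysis was possible because each group is 1 sample and the labels pair no cells. With 1 sample per group, nothing here separates a state from its culture, and in bands of 5 cells a bin's share moves in steps of 20 points.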
